A study of Mus musculus with 35 samples.

Results

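Transposable element RNA in the hippocampus of 9-month-old rTg4510 mice was compared with that of non-transgenic mice of the same age. The comparison used 5 rTg4510 and 6 non-transgenic libraries, 11 of the 35 libraries of the study, with the genotype taken from the sample title. Rows of the table of normalized counts were described where 5 or more of these 11 libraries reached a value of 10, which held for 876 of 1153 rows. The 277 other rows held 0.105% of the reads, and 37 of them were at 0 in all 11 libraries. A row sums the reads of all genomic copies of 1 repeat subfamily, and rows are called elements here.

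The rTg4510 line expresses mutant human tau in forebrain neurons and is used as a model of tauopathy. Both genotypes share a mixed 129S6 and FVB background, with founders from the Jackson Laboratory. The sources used here give neither the promoter of the transgene nor whether the non-transgenic mice carry its driver. Total hippocampal RNA was depleted of ribosomal RNA and sequenced as stranded pairs of 76 bases, and no treatment is named for either group. The series also holds both genotypes at 3 and 6 months, and the question put to the 9-month libraries was which elements differ between genotypes. No sex is named in the labels used here. Because the tissue was sequenced in bulk, fewer cells of a type and less RNA per cell cannot be told apart.

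Transposable elements are stretches of DNA that were once able to copy or move themselves. LINEs and LTR elements encode their own copying machinery and move through an RNA copy, SINEs are short elements that borrow the machinery of LINEs, and DNA transposons moved as DNA and are fossils in the mouse. Most copies are silenced in adult tissue by DNA methylation and repressive chromatin, and many copies inside genes are transcribed as part of the host transcript.

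The libraries were read on 2 sequencing lanes, as the sample descriptions give them. Each library is named by the animal number of its title, as Sample_199 and so on. Lane 1 held the rTg4510 libraries Sample_205, Sample_208 and Sample_211 and the non-transgenic libraries Sample_206, Sample_207, Sample_213 and Sample_214. Lane 8 held the rTg4510 libraries Sample_199 and Sample_203 and the non-transgenic libraries Sample_202 and Sample_204. Reads on elements ranged from 476049 to 893854 per library, and the median over tested elements of the mean reads per library was 104. The genotype in the characteristics disagreed with the title for 8 of the 11 libraries. With no gene rows in the table used here, neither the tau transgene nor hippocampal marker genes could be checked. CYRA11_Mm, a repeat of the mouse Y chromosome, had values of 107 to 187 normalized counts in rTg4510 and 140 to 273 in non-transgenic libraries.

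Sample_207 stood apart from its title in the ratio of B3 to B3A, related SINEs of the B2 family, and Sample_208 was the lowest rTg4510 library. The log2 ratio was 1.49, 1.53, 1.47, 1.35 and 1.44 in the rTg4510 libraries Sample_199, Sample_203, Sample_205, Sample_208 and Sample_211. In the non-transgenic libraries Sample_202, Sample_204, Sample_206, Sample_207, Sample_213 and Sample_214 it was 1.23, 1.25, 1.27, 1.46, 1.22 and 1.19. Sample_207, titled non-transgenic, lay within the range of the rTg4510 animals. Sample_208, titled rTg4510, lay below the other rTg4510 libraries and above all non-transgenic ones except Sample_207. In the column order of the deposited table, 6 consecutive 9-month columns hold 5 non-transgenic animals and Sample_208, and the next 5 hold 4 rTg4510 animals and Sample_207. This order and the ratio were not used to assign a genotype. Results are given with both animals under their titles and, beside them, with their genotypes exchanged. The exchange was prompted by values seen in these libraries, so its adjusted p-values do not test chance.

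**Figure D1:**
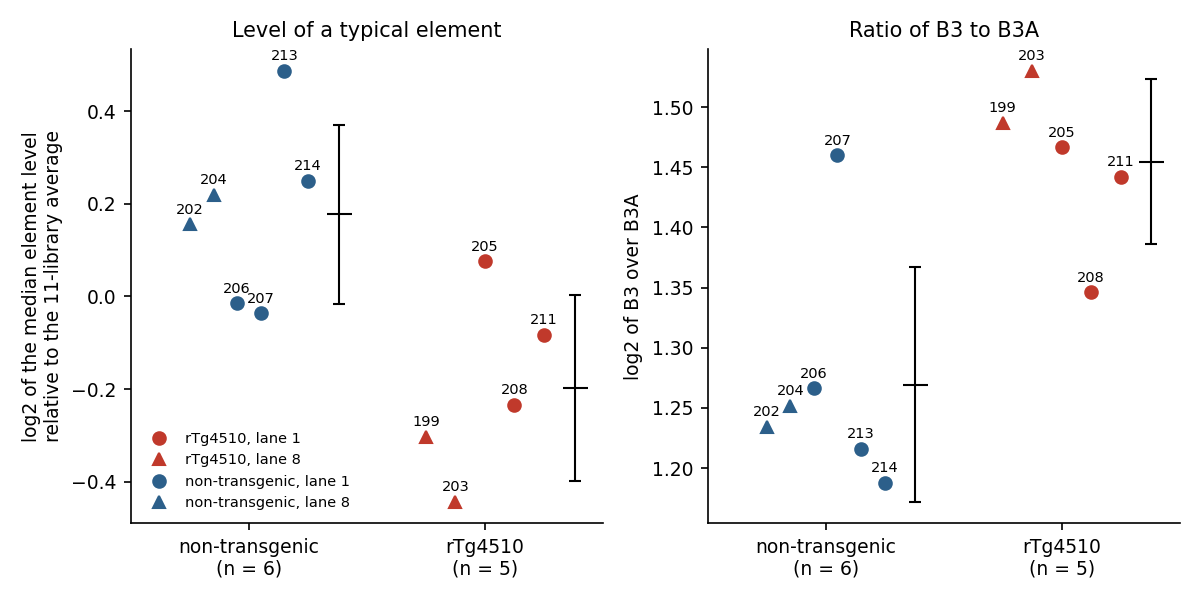
Typical element level by library (left, log2 relative to the average of the 11 libraries) and log2 ratio of B3 to B3A (right), by genotype as titled. Points are libraries labelled with the animal number, circles are lane 1, triangles are lane 8, and bars are the mean ± SD (n = 6 and 5). On the left the groups overlap through Sample_205, Sample_206 and Sample_207, and on the right Sample_207 sits at 1.46 among the rTg4510 libraries.

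Most elements had lower values in the rTg4510 libraries than in the non-transgenic ones on the deposited scale. The level of a typical element, the median over elements of the log2 ratio to the 11-library average, was -0.30, -0.44, 0.08, -0.23 and -0.08 in the rTg4510 libraries Sample_199, Sample_203, Sample_205, Sample_208 and Sample_211. In non-transgenic animals it was -0.04 at the lowest, 0.19 at the median and 0.49 at the highest. The groups overlapped, since Sample_205 of the rTg4510 group lay above Sample_206 and Sample_207 of the non-transgenic group. The means were -0.20 ± 0.20 (SD, n = 5) and 0.18 ± 0.19 (SD, n = 6), a difference of -0.37 (two-sided exact permutation p = 0.0173, smallest possible 0.00433). Within lane 1 the difference was -0.25 (3 against 4, exact permutation p = 0.229, smallest possible 0.0571). Within lane 8 it was -0.56 (2 against 2, where an exact permutation p cannot go below 0.333). With Sample_207 and Sample_208 exchanged the difference over all 11 libraries was -0.30.

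Element by element, 822 of 876 fold changes (93.8%) were below 0 on the deposited scale, with a median of -0.39. Limma called 319 elements lower (36.4% of those tested) and 0 higher at an adjusted p under 0.05. At an unadjusted p under 0.05 there were 451 elements, and edgeR called 314 lower (35.8%) and DESeq2 365 lower (41.7%), both with 0 higher. The smallest adjusted p was 0.0248, shared by many elements, so the calls lie close to the threshold together. Leaving out Sample_199, Sample_203, Sample_204, Sample_213 or Sample_214 left 0 calls each, and leaving out Sample_208 left 2 (0.228%), L1ME3G and MamGypLTR3a. With Sample_207 and Sample_208 exchanged 22 elements were lower (2.51%) and 4 higher (0.457%), and the median was -0.31. Of the 319 elements lower by title, 14 were among those 22.

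Values were also rescaled with TMM factors over the elements, which removes a shift shared by most of them and moved the median from -0.39 to -0.03. On this scale 406 elements were above 0 and 470 below. Size factors computed by DESeq2 over the elements alone gave a median of -0.02 and 0 calls in the same way. Limma called 0 elements higher and 0 lower (0% each), and 164 had an unadjusted p under 0.05, with 0.150 the smallest adjusted p. EdgeR called 0 there and DESeq2 called 7 higher (0.799%) and 6 lower (0.685%), all with adjusted p between 0.0463 and 0.0495. In a fit of all 35 libraries in 6 groups, which share 1 estimate of the spread, 58 elements were higher (6.62%) and 31 lower (3.54%). Statements below on the TMM scale are therefore differences relative to a typical element, and those on the deposited scale include the shared shift.

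**Figure D2:**
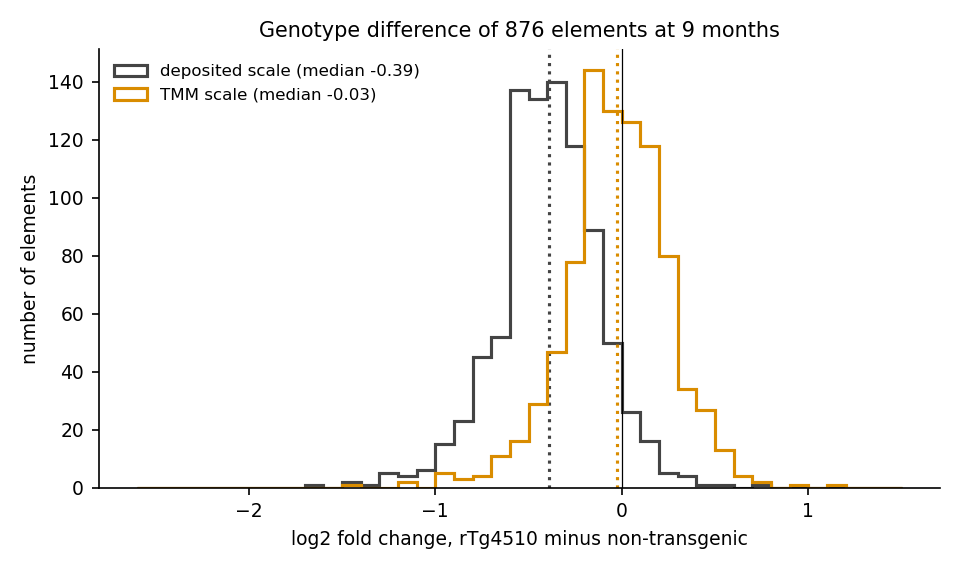
Distribution of the log2 fold change (rTg4510 minus non-transgenic) of the 876 tested elements on the deposited scale and the TMM scale, in bins of 0.1. Dotted lines are the medians, at -0.39 and -0.03.

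L1 elements, the LINEs that still move in the mouse, were lower on the deposited scale in 69 of 121 tested members, with 0 higher and a median of -0.44 (-0.07 on the TMM scale). Over all tested elements 36.4% were lower. Among 36 L1 elements with names of young mouse subfamilies, 30 were lower (83.3%, median -0.47), against 35 of 81 ancient ones (43.2%, median -0.39). Their median mean values were 771 and 306 normalized counts. Their TMM medians were -0.10 and -0.01, with 6 of the 36 young and 38 of the 81 ancient elements above 0. The TMM medians became 0.01 and -0.02 with Sample_207 and Sample_208 exchanged. On the deposited scale 0 of the 36 young and 2 of the 81 ancient elements were then lower, against 2.51% of all elements. The deposited medians were then -0.30 and -0.32. The share called rose with abundance on the deposited scale, with 70, 111 and 138 elements lower among the lowest, middle and highest 292 by mean value, while the medians of these groups were -0.52, -0.39 and -0.32.

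L1ME3G, an ancient L1 subfamily, showed one of the largest differences. It had 206.2, 102, 220.3, 229 and 245 normalized counts in the rTg4510 libraries Sample_199, Sample_203, Sample_205, Sample_208 and Sample_211, and 172.4, 517 and 752 at the lowest, median and highest in the non-transgenic group. All 5 rTg4510 libraries lay below 5 of the 6 non-transgenic ones, and the exception was Sample_207, which held the 172.4. L1ME3G changed by -1.26 (log2, deposited scale, SE 0.27, limma adjusted p = 0.0248). The TMM difference was -0.89 (adjusted p = 0.172), or -1.11 with Sample_207 and Sample_208 exchanged (adjusted p = 0.00209). It was -0.62 within lane 1 and -1.32 within lane 8 (TMM scale, adjusted p = 0.702 and 0.0414). The lane 8 libraries were part of the fit by which L1ME3G was chosen, so this lane 8 adjusted p does not test chance.

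L1_Mus1, a young mouse L1 subfamily, separated the groups on both scales by a smaller amount. Its values were 2437, 2326, 3019, 2558 and 2832 in rTg4510 in the same order of animals, and 3091, 3650 and 4634 at the lowest, median and highest in non-transgenic libraries. Every rTg4510 library was below every non-transgenic library. The log2 difference was -0.46 on the deposited scale (adjusted p = 0.0248) and -0.09 on the TMM scale (adjusted p = 0.272). Exchange of Sample_207 and Sample_208 gave an adjusted p on the deposited scale of 0.0893. Groups failed to overlap in this way for 20 elements on the deposited scale (2.28%), all lower, and on the TMM scale for 7 lower (0.799%) and 4 higher (0.457%). The 4, named after their values were seen, were MER34A, MamGypLTR1c, RLTR13G and RLTR20B3, with TMM differences of 0.26 to 0.51 and adjusted p of 0.150 to 0.174.

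Of 10 CR1 elements, LINEs shared with other vertebrates, 3 were lower on the deposited scale, against 36.4% of all elements. Their median was -0.16 (0.21 on the TMM scale). Exchanged genotypes gave CR1 medians of -0.31 and -0.01 on the deposited and TMM scales, beside -0.32 and -0.02 for L1. L3b of this family had 2826, 3465, 4012, 3908 and 3716 normalized counts in rTg4510 and 3070, 3534 and 3836 at the lowest, median and highest in non-transgenic libraries. Its values overlapped on the deposited scale (0.05, adjusted p = 0.706), and on the TMM scale it was 0.43 above a typical element (SE 0.11, adjusted p = 0.150). L1MEc, an ancient L1, likewise stood at -0.01 on the deposited scale and 0.36 on the TMM scale (adjusted p = 0.941 and 0.150). DESeq2 called both higher on the TMM scale (adjusted p = 0.0463 for each). Exchanging Sample_207 and Sample_208 gave TMM differences of 0.35 and 0.25 (adjusted p = 0.147 and 0.242).

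Leaving aside L1Md_T and ORR1A4, the SINE share of normalized counts was 47.1% ± 0.69 (SD, n = 5) for rTg4510 and 47.2% ± 0.48 (SD, n = 6) for the non-transgenic group. Of 35 SINE elements 18 were lower on the deposited scale (51.4%, median -0.30), against 36.4% of all elements. Their median mean value was 8684 normalized counts, against 125 for all elements, and the share called rose with abundance over all elements. With exchanged genotypes 0 of the 35 were lower, against 2.51% of all elements. The B2 and B4 families, SINEs of rodents, were lower in 4 of 5 and 4 of 4 members, with medians of -0.49 and -0.45. In the Alu family, which in the mouse comprises B1 and its relatives derived from 7SL RNA, 7 of 16 were lower, with a median of -0.29. After TMM rescaling the medians were -0.11, -0.07 and 0.08, and all 16 Alu elements lay above 0 while 4 of 5 B2 elements lay below. MIR elements, ancient mammalian SINEs, were lower in 1 of 4 members and had a TMM median of 0.15 with 4 of 4 above 0, and ID elements gave 2 of 4 lower and a TMM median of 0.08. With exchanged genotypes the TMM medians of Alu, B2, MIR and ID were 0.05, -0.12, 0.06 and 0.01.

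B2_Mm2, a young B2 subfamily, had 11217, 9450.5, 13693, 11285 and 12563 normalized counts in the rTg4510 animals and 12762, 17250 and 19973 at the lowest, median and highest in non-transgenic animals. The groups overlapped only through Sample_205 and Sample_207. The log2 difference was -0.50 on the deposited scale (SE 0.13, adjusted p = 0.0248) and -0.13 on the TMM scale (SE 0.05, adjusted p = 0.218). RSINE1 of the B4 family gave -0.52 and -0.14 (adjusted p = 0.0248 and 0.206), and B3A -0.49 and -0.11 (adjusted p = 0.0248 and 0.241). In the 35-library fit all 3 were lower on the TMM scale (adjusted p = 0.0434, 0.0191 and 0.0230). None of the 3 passed with Sample_207 and Sample_208 exchanged on either scale.

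B3 had the highest mean over the 11 libraries of normalized counts, which are not divided by length, and did not pass the threshold on either scale. Its level was 25525, 21781, 33376, 24123 and 29131 in rTg4510 and 28279, 32756 and 39699 at the lowest, median and highest in non-transgenic libraries. The deposited difference was -0.30 (adjusted p = 0.0567) and the TMM difference 0.07 (SE 0.04, adjusted p = 0.332), or 0.11 with exchanged genotypes (adjusted p = 0.125). B3 was the 1 element called higher at the younger ages (0.114% at each), and lay above non-transgenic levels on the TMM scale by 0.29 at 3 months and 0.25 at 6 months (35-library fit, adjusted p = 3.64e-10 and 2.45e-08). The 9-month difference was 0.21 below that at 3 months (adjusted p = 0.00235) and 0.17 below that at 6 months (adjusted p = 0.0343). With exchanged genotypes these gaps were -0.18 (adjusted p = 0.00160) and -0.14 (adjusted p = 0.109), so the call against 6 months was lost.

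Among the other abundant SINEs, ID_B1 of the B4 family was at -0.30 on the deposited scale and 0.07 on the TMM scale (adjusted p = 0.0498 and 0.370). MIRb of the MIR family was at -0.19 and 0.18 (adjusted p = 0.165 and 0.212). PB1D10, an old relative of B1, was at -0.20 and 0.17 (adjusted p = 0.136 and 0.172). ID2 had 1036, 929, 1300.1, 1161 and 1250.2 normalized counts in rTg4510 and 1334, 1422 and 1622 at the lowest, median and highest in non-transgenic libraries, without overlap. It was -0.34 on the deposited scale (adjusted p = 0.0323) and 0.03 on the TMM scale (adjusted p = 0.760).

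**Figure D3:**
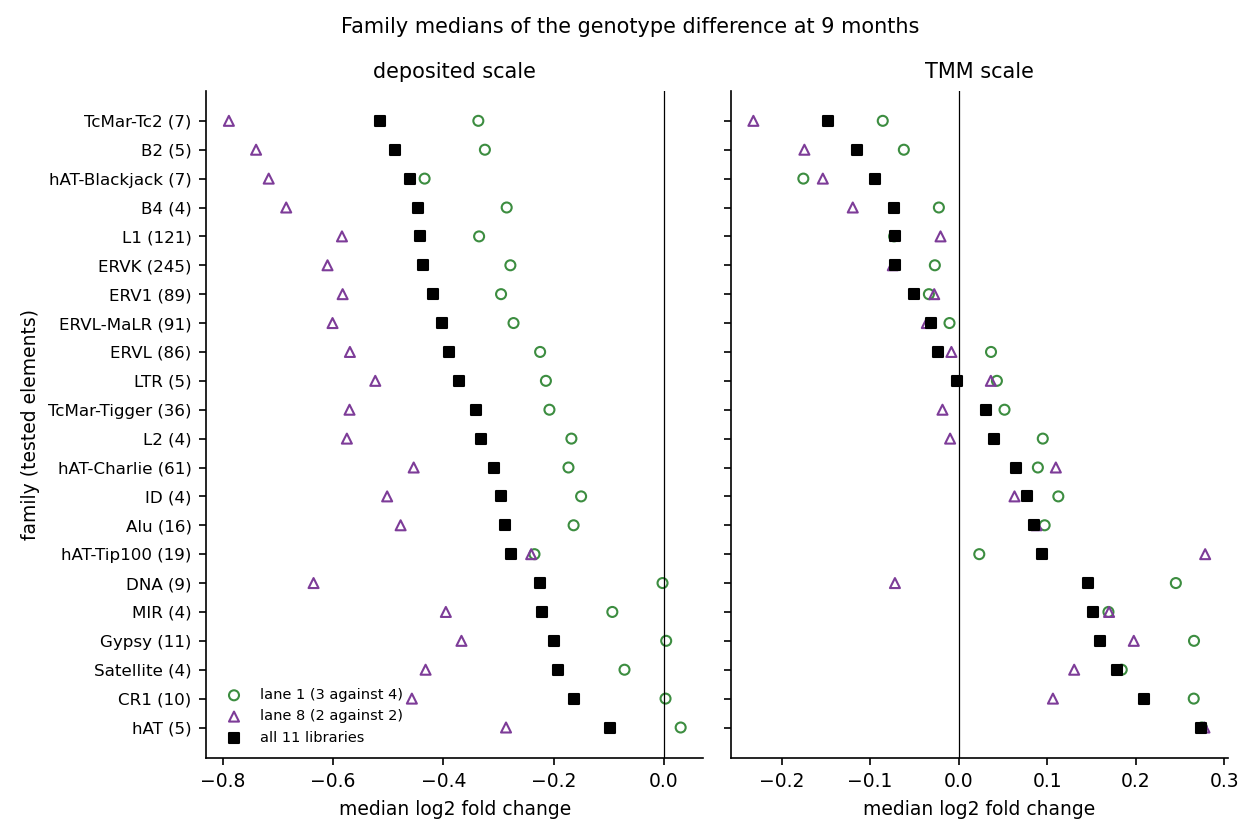
Median log2 fold change (rTg4510 minus non-transgenic) of the 22 families with at least 4 tested elements, on the deposited scale (left) and the TMM scale (right). Squares are all 11 libraries, circles are lane 1 (3 against 4) and triangles are lane 8 (2 against 2), and the number of tested elements follows each name. On the left the squares of all families lie below 0, and on the right they fall on both sides.

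LTR elements, which descend from retroviruses and related elements, were lower on the deposited scale in 36.6% of 524 members (median -0.42), against 36.4% of all elements. Internal parts, which hold the viral coding regions, were lower in 48 of 104 members (median -0.46), and the other LTR elements in 144 of 420 (median -0.41). Of the 245 ERVK elements, the group with the youngest mouse retroviruses, 85 were lower with a median of -0.44. IAP elements, intracisternal A particles that remain mobile in mice, were lower in 6 of 20 members with a median of -0.49, and ETn and MusD elements in 1 of 5 with a median of -0.49. MERVK10C and its relatives were lower in 12 of 24 members (median -0.50). These last 3 lists had TMM medians of -0.14, -0.12 and -0.14, with no member past the threshold. Exchanged genotypes gave -0.07 for IAP, 0.11 for ETn and MusD and -0.04 for MERVK10C. The ETn and MusD median was also above 0 without both libraries (0.04) and in lane 8 (0.32). It was below 0 in lane 1 (-0.06) and in the 35-library fit (-0.11).

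IAPEY4_I-int, an internal part of an IAP-related element, had 73.8, 36.6, 100.01, 54.0 and 83.5 normalized counts in the rTg4510 animals and 79.9, 144 and 201 at the lowest, median and highest in non-transgenic animals. The 2 groups overlapped because Sample_205 and Sample_211 of the rTg4510 group lay above Sample_207 of the non-transgenic group. Its log2 difference was -1.02 (SE 0.24, adjusted p = 0.0248), with -0.65 on the TMM scale (adjusted p = 0.172) and -0.51 there with exchanged genotypes (adjusted p = 0.188). The 5 other IAPEY elements gave -0.20 to -0.61 on the deposited scale, none past the threshold. IAPLTR2a2_Mm, an IAP long terminal repeat, had 108, 104, 118, 87.8 and 130 in rTg4510 against 132, 173.2 and 222 at the lowest, median and highest, without overlap. It gave -0.61 on the deposited scale (adjusted p = 0.0248) and -0.24 on the TMM scale (adjusted p = 0.258).

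RLTR10-int and RLTR11C_MM were among the 6 elements with the smallest p on the TMM scale. RLTR10-int, an ERVK internal part, had 241, 155, 291, 202.7 and 264 normalized counts in rTg4510 and 289, 396 and 507 at the lowest, median and highest in non-transgenic libraries. RLTR11C_MM, an ERVK long terminal repeat, had 94.2, 66.2, 130, 75.4 and 79.2 against 122, 151 and 230 (lowest, median and highest). On the deposited scale both groups of RLTR10-int and RLTR11C_MM overlapped through Sample_205 and Sample_207, and on the TMM scale those of RLTR11C_MM did not overlap. The deposited differences were -0.78 and -0.85 (adjusted p = 0.0248 for both), and the TMM differences -0.41 and -0.48 (SE 0.10 and 0.12, adjusted p = 0.150 for both). With exchanged genotypes they were -0.29 and -0.30 on the TMM scale (adjusted p = 0.200 and 0.318).

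ERV1 elements, related to gammaretroviruses, were lower in 29 of 89 members on the deposited scale (median -0.42), against 36.4% of all elements. Relatives of murine leukemia virus were lower in 2 of 10 (median -0.33). LTRIS4, an ERV1 long terminal repeat, had 28.4, 13.8, 40.5, 34.9 and 51.9 normalized counts in rTg4510 and 24.98, 70.8 and 91.2 at the lowest, median and highest in non-transgenic libraries. Sample_207 again held the lowest non-transgenic value. LTRIS4 gave a log2 difference of -0.96 (SE 0.31, adjusted p = 0.0280), and of -1.13 with exchanged genotypes (adjusted p = 0.0490). MuRRS4-int, an internal part of this group, had 168, 86.01, 243, 195.9 and 200.2 in rTg4510 and 142, 324 and 414 at the lowest, median and highest in non-transgenic libraries. It gave -0.82 (adjusted p = 0.0248), and -0.99 with exchanged genotypes (adjusted p = 0.0198). LTR37B had 34.7, 36.6, 32.4, 34.9 and 31.7 against 42.5, 60.6 and 76.5 (lowest, median and highest), without overlap, and its difference of -0.82 (adjusted p = 0.0248) became -0.54 with exchanged genotypes (adjusted p = 0.113).

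ERVL elements, old relatives of the MERVL group, were lower in 26 of 86 members (median -0.39), against 36.4% of all elements. In the MERVL list itself 1 of 8 was lower (median -0.27, TMM median 0.11 with 7 of 8 above 0). That 1 element was MERVL_2A-int, at -0.44 on the deposited scale and -0.07 on the TMM scale (adjusted p = 0.0248 and 0.481). MER77B, an ancient ERVL repeat, had 63.998, 48.4, 94.6, 65.3 and 60.5 normalized counts in rTg4510 and 91.4, 120.1 and 179.4 at the lowest, median and highest in non-transgenic libraries. Only Sample_205 of the rTg4510 group reached into the non-transgenic range, and on the TMM scale the groups did not overlap. Its difference was -0.86 on the deposited scale (SE 0.20, adjusted p = 0.0248) and -0.50 on the TMM scale (SE 0.12, adjusted p = 0.150). With exchanged genotypes it was -0.37 on the TMM scale (adjusted p = 0.188). MER74B, another ancient ERVL repeat, gave -0.86 and -0.50 (adjusted p = 0.0248 and 0.241).

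MaLR elements, non-autonomous relatives of ERVL, were lower in 49 of 91 members on the deposited scale (53.8%, median -0.40), against 36.4% of all elements. The mouse and rodent subfamilies named ORR1 and MT were lower in 35 of 47 members (74.5%, median -0.45) and the mammalian ones in 14 of 42 (33.3%, median -0.36). Their median mean values were 524 and 158 normalized counts, and the share called rose with abundance over all elements. Their TMM medians were -0.08 and 0.02, or -0.04 and -0.01 with exchanged genotypes. On the deposited scale 1 of the 47 and 1 of the 42 were then lower, against 2.51% of all elements. ORR1C1-int had 68.4, 61.3, 96.0, 54.0 and 74.9 normalized counts in rTg4510 and 86.2, 136 and 172.8 at the lowest, median and highest in non-transgenic libraries. Sample_205 alone of the rTg4510 group lay above the lowest non-transgenic values. The difference was -0.84 (SE 0.20, adjusted p = 0.0248), -0.47 on the TMM scale (adjusted p = 0.172) and -0.29 there with exchanged genotypes (adjusted p = 0.342).

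Gypsy-like elements, ancient LTR elements shared by mammals, were lower in 2 of 11 members (18.2%, median -0.20, TMM median 0.16), against 36.4% of all elements. Both, LTR81B and MamGypLTR3a, were among the largest differences of the table. LTR81B had 23.999, 11.9, 37.8, 34.9 and 34.6 normalized counts in rTg4510 and 22.5, 80.9 and 99.0 at the lowest, median and highest in non-transgenic libraries, where the lowest was again Sample_207. Its log2 difference was -1.27 (SE 0.32, adjusted p = 0.0248), with -0.91 on the TMM scale (adjusted p = 0.172) and -1.20 there with exchanged genotypes (adjusted p = 0.00583). MamGypLTR3a had 39.1, 45.5, 66.2, 194 and 60.5 in rTg4510 and 66.2, 151 and 183.4 at the lowest, median and highest in non-transgenic libraries. Sample_208 was above all 6 non-transgenic libraries and Sample_207, at 66.2, below the other 5. With limma the difference was -0.96 (SE 0.30, adjusted p = 0.0255), and edgeR and DESeq2 did not call it (adjusted p = 0.0532 and 0.134). It became -1.52 with exchanged genotypes (limma adjusted p = 7.61e-05). The TMM difference went from -0.59 (adjusted p = 0.291) to -1.22 (adjusted p = 0.000678).

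DNA transposons were lower in 29 of 146 members on the deposited scale (19.9%, median -0.33, TMM median 0.03), against 36.4% of all elements. Their median mean value was 79.8 normalized counts, against 125 for all elements. The hAT-Charlie family gave 13 of 61 lower and the TcMar-Tigger family 10 of 36, with TMM medians of 0.06 and 0.03. With exchanged genotypes the TMM medians were -0.03 for DNA transposons, -0.01 for hAT-Charlie and -0.06 for TcMar-Tigger. On the deposited scale 5 of the 146 DNA transposons were then lower, against 2.51% of all elements. Charlie19a, a hAT-Charlie element of low abundance, had 11.6, 10.9, 14.9, 9.01 and 14.4 normalized counts in rTg4510 and 21.9, 32.6 and 38.7 at the lowest, median and highest in non-transgenic libraries. The groups did not overlap on either scale. Its difference was -1.31 on the deposited scale (SE 0.26, adjusted p = 0.0248) and -0.95 on the TMM scale (SE 0.19, adjusted p = 0.150). With exchanged genotypes these were -0.78 and -0.49 (adjusted p = 0.120 and 0.359).

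Tigger10, a fossil relative of mariner transposons, had 48.9, 30.6, 50.003, 43.9 and 63.4 normalized counts in rTg4510 and 48.7, 102 and 136 at the lowest, median and highest in non-transgenic libraries. Sample_207 held that lowest value, and the other 5 non-transgenic animals lay above all rTg4510 animals. The log2 difference of Tigger10 was -0.94 (SE 0.24, adjusted p = 0.0248). Tigger13a of the same family had 58.7, 39.5, 63.5, 49.5 and 63.4 against 67.4, 91.5 and 133 (lowest, median and highest), without overlap, and a difference of -0.79 (adjusted p = 0.0248). Their TMM differences were -0.58 and -0.43 (adjusted p = 0.174 and 0.172), and with exchanged genotypes at -0.59 and -0.33 (adjusted p = 0.113 and 0.211). The 4 satellite elements, tandem repeats of centromeric and other heterochromatin, gave 0 lower and 0 higher, a deposited median of -0.19 and a TMM median of 0.18. Exchanged genotypes gave satellite medians of -0.32 and -0.02.

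**Figure D4:**
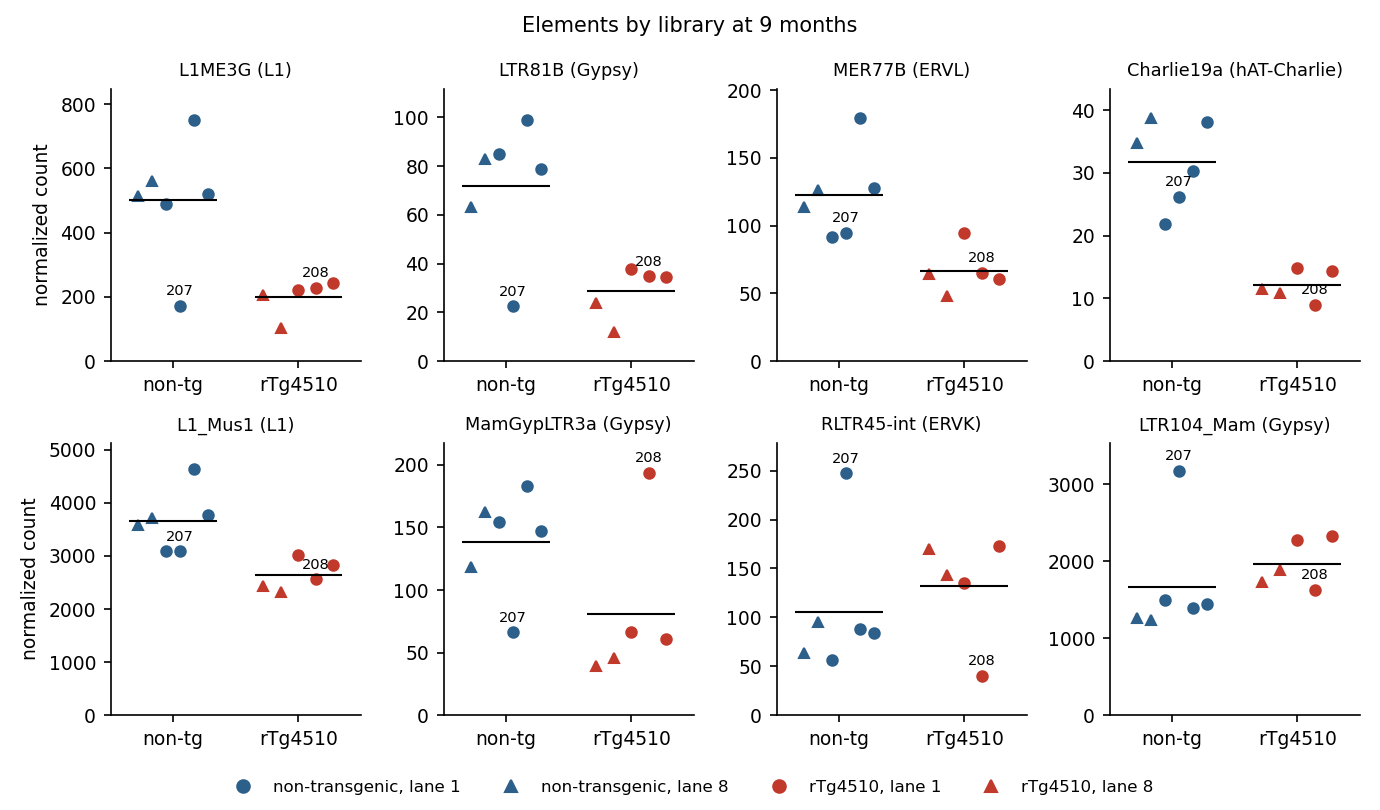
Normalized counts of 8 elements in each library, by genotype as titled. Points are libraries (circles lane 1, triangles lane 8), horizontal lines are group means, and Sample_207 and Sample_208 are labelled. Charlie19a and L1_Mus1 do not overlap between groups, Sample_207 is the lowest non-transgenic value for L1ME3G, LTR81B and MamGypLTR3a, and Sample_207 is the highest for RLTR45-int and LTR104_Mam.

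Exchanging the genotypes of Sample_207 and Sample_208 gave 24 higher (2.74%) and 9 lower (1.03%) elements on the TMM scale, in place of 0 and 0. All 24 and 8 of the 9 were also called when both animals were left out, where 48 were higher (5.48%) and 25 lower (2.85%). Both fits share all other libraries under the same labels, so this overlap is not a separate test of the exchange. By class, the 24 comprised 18 LTR elements, 3 DNA transposons, 2 LINEs and 1 of unknown class, and the 9 comprised 7 LTR elements and 2 LINEs. Among all tested elements LTR elements made up 59.8%, DNA transposons 16.7%, LINEs 16.0% and SINEs 4.00%. Leaving out Sample_207 alone gave 64 higher (7.31%) and 28 lower (3.20%), and leaving out any other single library gave 0 of either.

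RLTR45-int, an ERVK internal part, had the smallest adjusted p with exchanged genotypes. It and the next elements were named after their values were seen. RLTR45-int had 170, 143, 135, 40.5 and 172.8 normalized counts in the rTg4510 libraries Sample_199, Sample_203, Sample_205, Sample_208 and Sample_211, and 63.2, 95.2, 56.6, 247, 88.4 and 84.4 in the non-transgenic libraries Sample_202, Sample_204, Sample_206, Sample_207, Sample_213 and Sample_214. Sample_208 held the lowest value of all 11 libraries and Sample_207 the highest. By title the TMM difference was 0.72 (SE 0.40, adjusted p = 0.307), and with exchanged genotypes it was 1.60 (adjusted p = 5.54e-05). Within lane 8, which holds neither animal, it was 1.56 (2 against 2, adjusted p = 0.0151). The lane 8 libraries were part of the exchanged fit by which RLTR45-int was chosen, so this adjusted p does not test chance. At 3 and 6 months RLTR45-int differed by 0.44 and 0.87 on the TMM scale (35-library fit, adjusted p = 0.999 and 0.730).

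LTR104_Mam, a Gypsy-like element, was likewise highest in Sample_207. Its values were 1725, 1881, 2270.4, 1629 and 2323 in rTg4510 and 1256, 1238, 1491, 3174, 1395 and 1445 in non-transgenic animals. With Sample_207 set aside all 5 rTg4510 libraries exceeded the non-transgenic ones. The TMM difference was 0.68 by title (adjusted p = 0.172), 0.97 with exchanged genotypes (adjusted p = 0.00201) and 1.10 within lane 8 (2 against 2, adjusted p = 0.00330). As for RLTR45-int, the lane 8 libraries were part of the fit that chose it, so the lane 8 adjusted p does not test chance.

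UCON26, an ancient element of unknown class, had 69.3, 101, 97.3, 42.8 and 99.4 normalized counts in rTg4510 and 53.7, 28.3, 47.6, 183.6, 40.9 and 68.03 in non-transgenic libraries. Sample_207 was again the highest of all, and Sample_208 the lowest of its group. The TMM difference was 0.79 by title and 1.49 with exchanged genotypes (adjusted p = 0.271 and 0.00209). Together with Charlie8, a hAT-Charlie element, RLTR45-int, LTR104_Mam and UCON26 were the 4 elements higher on the deposited scale with exchanged genotypes. Charlie8 stood there at 0.52 (adjusted p = 0.0167).

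The median deposited difference was below 0 in both lanes and further below 0 in lane 8. In lane 1 the median was -0.26, and limma called 0 elements there, with 70 at an unadjusted p under 0.05. In lane 8 the median was -0.58, with calls for 515 lower (58.8%) and 8 higher (0.913%). Of 876 elements, 742 (84.7%) were below 0 in both lanes, but elements of a library share its shift and are not separate observations. On the TMM scale 73.3% had the same sign in both lanes. The difference between lanes in the genotype effect, tested as an interaction, was past the threshold for 0 elements on either scale, with 46 and 18 at an unadjusted p under 0.05 on the deposited and TMM scales. Lane 8 holds 2 libraries a group, so its spread rests on 2 residual degrees of freedom and on the trend over elements. On the TMM scale lane 8 gave 28 higher (3.20%) and 3 lower (0.342%) elements, the 3 being L1ME3G, MamGypLTR3a and RLTR13C1, and lane 1 gave 0 and 0. Lane 1 with Sample_207 and Sample_208 exchanged gave 1 element each way (0.114%) on the TMM scale, RLTR45-int (1.60, adjusted p = 0.00825) and MamGypLTR3a (-1.24, adjusted p = 0.0233).

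L1Md_T, a young and mobile L1 subfamily, and ORR1A4, a MaLR element, differed between lanes and did not pass the threshold for genotype. Among the 7 lane 1 libraries L1Md_T held 0.207% to 0.344% and ORR1A4 0.185% to 0.352% of the normalized counts. In the lane 8 libraries Sample_199, Sample_203, Sample_202 and Sample_204 L1Md_T held 1.75%, 8.90%, 6.25% and 0.893%, and ORR1A4 2.06%, 12.8%, 6.20% and 5.05%. In each lane the values of the genotypes overlapped. With genotype in the model the lane difference was 3.50 for L1Md_T and 4.55 for ORR1A4 (log2, lane 8 minus lane 1, deposited scale, adjusted p = 5.89e-06 and 7.85e-10), and with L1MEd and ETnERV2-int 4 elements were higher in lane 8 (0.457%), while L1MDb and MMERVK9C_I-int were lower (0.228%). The genotype difference of L1Md_T was 0.22 (SE 0.78, adjusted p = 0.808) and that of ORR1A4 0.07 (SE 0.94, adjusted p = 0.947). These come from the main fit without a lane term. Its SEs include the difference between lanes, so a genotype difference in these elements is not excluded.

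**Figure D5:**
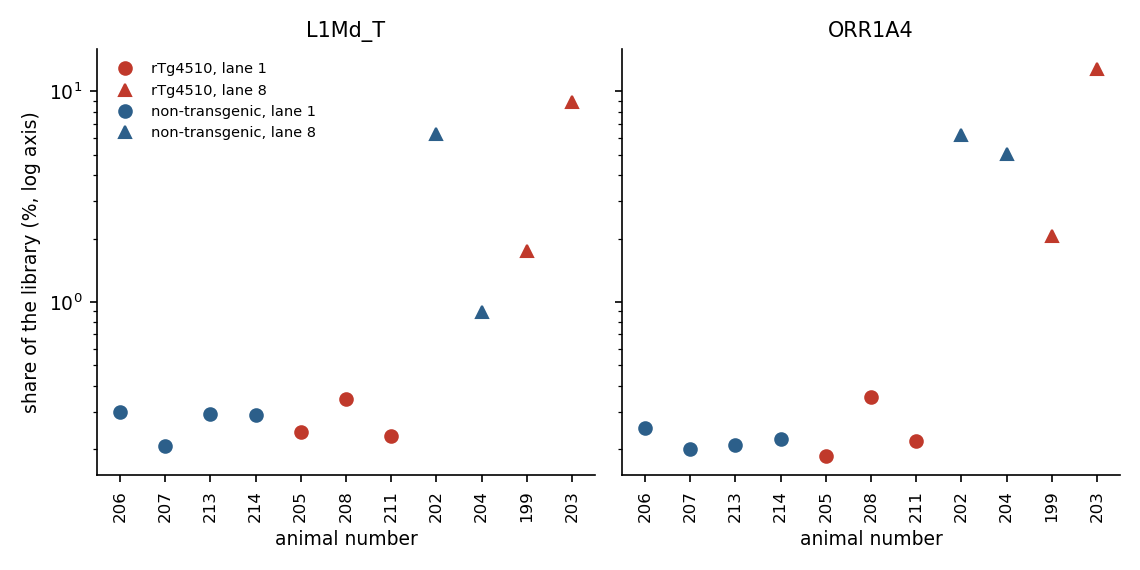
Share of each library's normalized counts held by L1Md_T and ORR1A4, on a log axis, with libraries ordered by lane and genotype. Circles are lane 1 and triangles lane 8, and all 7 lane 1 libraries lie at or below 0.352% while all 4 lane 8 libraries lie at or above 0.893%.

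Set against the younger animals, the deposited genotype difference at 9 months was lower than that at 3 months for 305 of 876 elements (34.8%) and higher for 0, in a fit of all 35 libraries. With Sample_207 and Sample_208 exchanged it was lower for 75 (8.56%) and higher for 1 (0.114%), LTR104_Mam. Against 6 months 1 element differed (0.114%), IAPEY4_I-int (-1.29, adjusted p = 0.0343), and 0 with exchanged genotypes. Against 3 months on the TMM scale, 13 elements were lower (1.48%) and 9 higher (1.03%), or 21 (2.40%) and 26 (2.97%) with exchanged genotypes. L1ME3G was 1.06 lower at 9 than at 3 months relative to a typical element (difference of -1.06, adjusted p = 0.0191), MER77B gave -0.72 (adjusted p = 0.0184) and L3b 0.52 (adjusted p = 0.0354). With exchanged genotypes the values were -1.29, -0.60 and 0.43 (adjusted p = 0.000258, 0.0460 and 0.0870), and L3b no longer passed. Of the 12 libraries at 3 months, 11 were read on lanes other than 1 and 8, and so were 8 of the 12 at 6 months. The 4 other 6-month libraries, on lane 8, were Sample_195 of the non-transgenic group and Sample_196, Sample_197 and Sample_198 of the rTg4510 group. The fit had no term for lane, so age and lane cannot be told apart in the comparison with either age.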

How the data were processed

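The values are normalized counts, a signal in which the authors divided read counts by 1 factor per library. The submitters' processing notes name Trimmomatic, STAR, DESeq2 and the build mm10 but no version. For the counting program, the repeat annotation, the handling of reads with several alignments and the rows behind the factors, the sources used here give nothing. Reads of closely related subfamilies may be shared between rows, and copies within genes can add to a row. Every value came out within 0.01 of a whole read after division by the smallest step of its column (100.0% of values), and the factors recovered for the 11 libraries ranged from 0.633 to 1.13. The recovered reads gave the TMM factors and the other factors over elements, the read totals and the chi-square below. They also entered the alternatives with edgeR and DESeq2, while limma on the deposited scale did not use them. The chi-square between pairs of libraries was 2.22 to 203 times that of read sampling alone, and each library was counted as 1 replicate. Nothing in the labels says beyond the animal number that samples are separate animals, and p-values measure the spread between these samples.

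The main test was limma 3.58.1 in R 4.3.3, with an intensity trend, on log2(value + 1) of the 11 libraries, two-sided, with Benjamini-Hochberg adjustment over 876 elements and a threshold of 0.05. Fold changes on this scale understate the change of low elements. The second scale used TMM factors from edgeR 4.0.16. DESeq2 1.42.0 was an alternative, as were other pseudocounts, filters, lane settings, array weights, leaving out each library, and the characteristics' genotype. Age differences were tested in a fit of all 35 libraries. The scripts were tested on simulated data.

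Named elements are, on each scale, the 8 largest changes each way among called elements whose mean was 50 or more, the 2 smallest p-values in each family or list with a call, the 5 highest means, the 3 widest ranges of share, some fixed names, and the 6 smallest p-values where a scale had no call. Not all that the rule names are printed. Lists follow element names, and the pattern for ancient L1 leaves out L1Md, which belongs to the young list. Members, lists and rules were chosen with earlier results of these data known.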

Additional observations from a re-analysis of the deposited data

Results flagged for a closer look

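A value was noted where 1 library lay far from the others of its group by Dixon's criterion, which chance meets in about 1 in 20 groups. Such values were found 13 times in 74 groups, a count that cannot be read against chance, since RLTR45-int, UCON26 and LTR104_Mam were chosen for their differences with Sample_207 and Sample_208 exchanged, and L1Md_T and ORR1A4 entered both as values and as shares. Animal Sample_207 stood apart from the other non-transgenic animals for RLTR45-int (247 normalized counts), UCON26 (183.6), LTR104_Mam (3174) and the log2 ratio of B3 to B3A (1.46). Animal Sample_208 stood apart from the other rTg4510 animals for RLTR45-int (40.5) and MamGypLTR3a (194). These are the libraries whose exchange is reported above. Animal Sample_203 of lane 8 stood apart within rTg4510 for L1ME3G (102), L1Md_T (60423, 8.90% of the library) and ORR1A4 (87129, 12.8%). Animal Sample_202, also of lane 8, stood apart within the non-transgenic group for L1Md_T (54967, 6.25%).

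The genotype difference at 9 months differed from that at 3 months, by a test of the difference itself in the fit of all 35 libraries, for 24 of the 33 elements given with values on 1 or both scales. Over all 876 tested elements 305 were lower (34.8%) and 0 higher on the deposited scale, or 75 lower (8.56%) with exchanged genotypes, and values on this scale include the shift shared by most elements. Of the 22 called here on the deposited scale 13 were also called with exchanged genotypes, and of the 10 called on the TMM scale 3 were, L1ME3G, MER77B and B3. On the deposited scale the differences of L1 elements were -1.53 for L1ME3G and -0.53 for L1_Mus1. Those of SINEs were -0.68 for B3, -0.63 for B2_Mm2, -0.61 for RSINE1, -0.59 for B3A and -0.43 for ID2. ERVK elements gave -1.19 for IAPEY4_I-int, -1.08 for RLTR11C_MM, -0.84 for RLTR10-int and -0.70 for IAPLTR2a2_Mm. ERV1 elements gave -1.23 for LTR37B, -1.05 for LTRIS4 and -0.91 for MuRRS4-int. ERVL and MaLR elements gave -1.18 for MER77B, -1.13 for MER74B, -1.10 for ORR1C1-int and -0.55 for MERVL_2A-int. The Gypsy-like LTR81B gave -1.36, and the DNA transposons Charlie19a, Tigger10 and Tigger13a gave -1.54, -1.08 and -1.02.

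On the TMM scale the difference from 3 months was -1.09 for Charlie19a, -1.06 for L1ME3G, -0.77 for LTR37B, -0.73 for IAPEY4_I-int, -0.72 for MER77B, -0.63 for ORR1C1-int, -0.62 for RLTR11C_MM and -0.21 for B3, and it was 0.52 for L3b and 0.40 for L1MEc. Against 6 months IAPEY4_I-int differed by -1.29 on the deposited scale and -0.95 on the TMM scale, and B3 by -0.17 on the TMM scale. None of these 3 passed with exchanged genotypes (limma adjusted p = 0.193, 0.114 and 0.109).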

How the results depend on the processing

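No paired analysis was possible because the replicate numbers are animal numbers that no 2 libraries share. On the deposited scale, 319 elements were lower and 0 higher, with a median of -0.39. The counts were 515 and 8 in lane 8 alone, 0 and 0 in lane 1 alone, 495 and 8 with array weights, 376 and 7 without Sample_207 and Sample_208, 22 and 4 with both exchanged, 33 and 4 with exchange and lane as covariate, 438 and 1 in the 35-library fit, and 0 and 0 with DESeq2's size factors over elements (median -0.015). In lane 1, exchange gave 1 lower (median -0.15) and leaving out Sample_207 and Sample_208 gave 2 lower. Leaving out 1 library gave 0 to 446 lower, 0 to 6 higher and medians of -0.47 to -0.32. On the TMM scale, 0 and 0 became 7 higher and 6 lower with DESeq2, 58 and 31 in the 35-library fit, 28 and 3 in lane 8, 76 and 37 with array weights, 48 and 25 without Sample_207 and Sample_208, 24 and 9 with exchange, and 33 and 10 with exchange and lane as covariate. In lane 1 on this scale, exchange gave 1 and 1, and leaving out Sample_207 and Sample_208 gave 9 higher and 3 lower. Leaving out 1 library gave 0 to 64 higher and 0 to 28 lower. The cause of these shifts was not tested.

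Against 3 months on the deposited scale, 305 lower and 0 higher became 75 and 1 with exchange. Without Sample_207 and Sample_208 the counts were 349 lower and 1 higher. On the TMM scale, 13 lower and 9 higher became 21 and 26 with exchange and 40 and 59 without both. Against 6 months, 1 lower (deposited) and 2 lower (TMM) became 0 and 0 with exchange, and 2 and 4 without both, with 12 higher on the TMM scale.

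Genotype from the characteristics gave 0 calls and a deposited median of 0.27, with 46 of all 876 elements (5.25%) below 0. Among the 33 elements given with values, it turned 23 called ones to positive values (limma adjusted p = 0.325 to 0.709). These were LTR81B 0.47, L1ME3G 0.58, IAPEY4_I-int 0.68, MamGypLTR3a 0.20, LTRIS4 0.77, Tigger10 0.70, MER77B 0.47, MER74B 0.62, Charlie19a 0.77, RLTR10-int 0.49, RLTR11C_MM 0.41, B3A 0.34, B2_Mm2 0.31, RSINE1 0.34, ID_B1 0.22, ID2 0.26, L1_Mus1 0.33, ORR1C1-int 0.56, LTR37B 0.53, MuRRS4-int 0.46, Tigger13a 0.41, IAPLTR2a2_Mm 0.46 and MERVL_2A-int 0.27. DESeq2's size factors turned ID_B1 to 0.080 and ID2 to 0.042. How far read depth limits elements of low abundance, such as Charlie19a and LTR81B, was not tested.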
